A study of Mus musculus with 16 samples.

Results

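Nlrx1 and its transcript variants were followed in cultured mouse astrocytes with and without the intact gene. The gene was taken by its symbol, and its variants by the RefSeq accessions paired with that symbol, which gave 3 of the 129698 transcripts in the quantification files and 1 of 35297 genes after summing. Astrocytes were selected from the brains of pups, P6 by the labels although the study's text gives a younger age in one place, with beads against ACSA-2, an astrocyte surface antigen, and were grown without serum before treatment. The 4 groups were wild-type (WT) C57BL/6J and Nlrx1-/- cells on that background, each given either water as vehicle or lipopolysaccharide (LPS) at 500 ng/mL together with interferon gamma (IFNγ) at 10 ng/mL for 24 h. Each genotype had 4 litters, and each litter gave 1 vehicle well and 1 LPS + IFNγ well, so that 16 poly-A RNA libraries were made with 4 in each group. Litter numbers name litters within a genotype, and the labels do not say whether equal numbers share a preparation day across genotypes. The Nlrx1-/- animals came from another laboratory, and which exons their allele lacks is not given in the sources used here, so reads of Nlrx1 in these cells may come from parts of the gene outside the deletion.

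NLRX1 is a member of the NOD-like receptor (NLR) family, proteins that sense microbial products or cell stress through leucine-rich repeats. Unlike most of the family it is carried to mitochondria, where it is known as a brake on interferon signalling through MAVS and on NF-κB signalling through TRAF6 and the IKK complex, and as a partner of TUFM in autophagy. LPS and IFNγ together turn on inflammatory and interferon-response genes in astrocytes.

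In GENCODE M39 on GRCm39, Nlrx1 (ENSMUSG00000032109.17) occupies chr9:44164011-44179896 and is read from the minus strand, and no annotated gene in the RefSeq table overlapped it. GENCODE M39 is another annotation than the RefSeq transcripts the reads were assigned to, but of the same assembly. It lists 14 models, of which the first 3 in its numbering are described as examples, and the other 11 have further first exons or other changes. Nlrx1-201, Nlrx1-202 and Nlrx1-203 each have 10 exons and 2925 coding bases, and the coding sequence runs from exon 2 to exon 10. The first exon is therefore 5′ UTR in each model. Nlrx1-202 shares 9 of its exons with Nlrx1-201 and differs in exon 1, while Nlrx1-203 shares 8 and also has a shorter exon 2 of 114 instead of 122 bases. The start of Nlrx1-201 was 108 bases downstream of that of Nlrx1-202, and the start of Nlrx1-203 was 370 bases downstream of it.

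**Figure D1:**
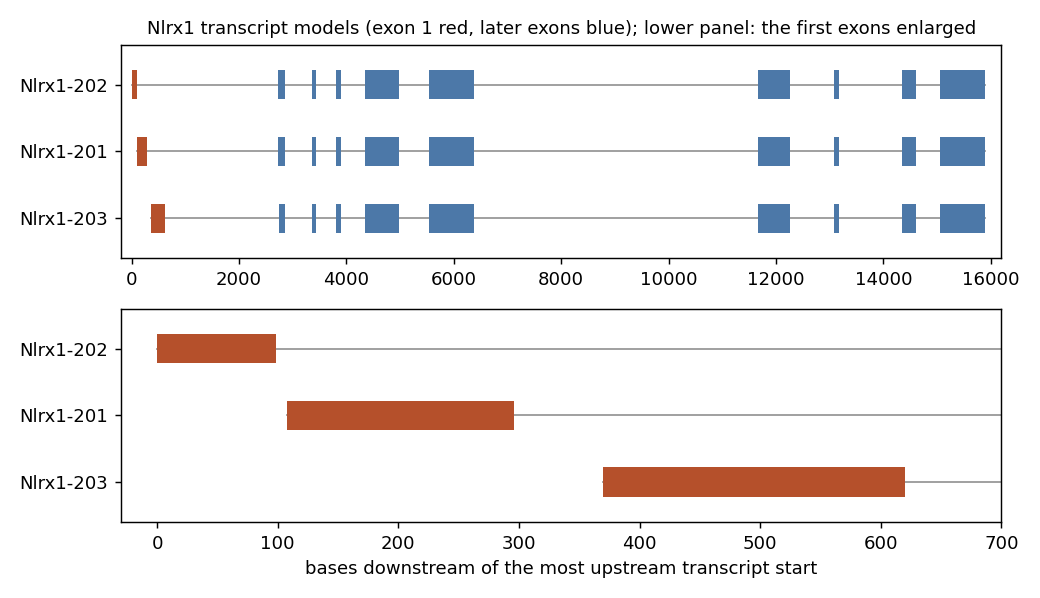
Exons of 3 GENCODE M39 models of Nlrx1, with the horizontal axis in bases downstream of the start of Nlrx1-202; boxes are exons, grey lines introns, and the lower panel enlarges the first exons. The first exons (red, 99, 188 and 250 bases from top to bottom) do not overlap, whereas the exons that follow line up in all 3 models.

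The joins between exon 1 and exon 2 are shown because they are where the messages part. Capitals mark the last 15 bases of exon 1, and lower case the first 15 bases of exon 2, read 5′ to 3′ from the GENCODE M39 transcripts.
Nlrx1-202: GTCTTCTGCCTGGAGggcaacaggaaagaa
Nlrx1-201: AGTCCAGACTTGGAGggcaacaggaaagaa
Nlrx1-203: GCCTAGGCAACCTGGgaaagaaagtggctc
The exon 2 part is the same in the first and second of these, and the exon 1 part differs. On GRCm39, exon 1 spans chr9:44179798-44179896 in Nlrx1-202, chr9:44179601-44179788 in Nlrx1-201 and chr9:44179277-44179526 in Nlrx1-203.

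The RefSeq variants in the quantification files were NM_001163742.1 with 3605 bases, NM_178420.3 with 3694 bases and NM_001163743.1 with 3706 bases. NM_178420.3 and NM_001163742.1 differ by 89 bases, as Nlrx1-201 and Nlrx1-202 do, and each is 22 bases longer than that model. NM_001163743.1 is 20 bases shorter than Nlrx1-203 and matched none of the 3 models by length. Variants were not matched to models by sequence, since the files hold no sequence. A first exon is 2.76% of the length of Nlrx1-202, 5.12% of Nlrx1-201 and 6.71% of Nlrx1-203. Most fragments of an Nlrx1 message thus carry no base that tells these models apart, and Salmon, the program that assigned the reads, divides such fragments between variants by estimation.

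Between 27259420 and 43752903 read pairs per library were assigned to transcripts. Of a check list for the stimulus, Cxcl10, Irf1, Gbp2, Nos2, Lcn2, Ccl5 and Ccl2 rose with LPS + IFNγ in WT and in Nlrx1-/- cells (edgeR, adjusted p below the threshold of 0.05, called from here on). All 8 astrocyte markers on the list were expressed, with a summed level between 2454 and 6024 TPM, a read count scaled for transcript length and depth, in a library. The 8 microglial markers summed to at most 1.88 TPM in any library. Aif1 was listed at 0 in all 4 vehicle libraries of both genotypes and had at most 5 reads in WT LPS + IFNγ. P2ry12, the 1 microglial marker with enough reads to be tested, rose with the stimulus in Nlrx1-/- cells by 2.26 on the log2 scale. It reached 56 reads and 1.62 TPM there, and its rise in WT was not called. Oligodendrocyte-lineage markers, 6 genes, summed to 291 to 525 TPM in WT vehicle and 75.3 to 400.3 in Nlrx1-/- vehicle, and to 112 to 257 in WT LPS + IFNγ and 31.5 to 134 in Nlrx1-/- LPS + IFNγ. In LPS + IFNγ, S100b, Gja1, Aldoc and Pdgfra were lower in Nlrx1-/- cells, with log2 changes from -2.0 to -0.62. Neuronal markers (4 genes) summed to 12.7 to 20.6 TPM in vehicle and 61.6 to 99.7 TPM in LPS + IFNγ, with Tubb3 alone at a mean of 74.4 TPM in WT LPS + IFNγ while Rbfox3 fell with the stimulus in both genotypes. Vascular markers (3 genes) summed to at most 4.92 TPM, and Foxj1 and Ccdc153, genes of ciliated ependymal cells, to 45.8 to 189 TPM. Of these marker genes S100b, Gja1, Aldoc and Pdgfra were the ones called between genotypes in LPS + IFNγ, 3 of 8 for astrocytes and 1 of 6 for the oligodendrocyte lineage, beside 5.03% of all genes called and 2.38% called lower. Each of these 4 calls held in 2 of 8 fits with a litter left out. At an unadjusted p below 0.05 in LPS + IFNγ were 5 of 8 astrocyte and 5 of 6 oligodendrocyte-lineage markers, beside 28.4% of all genes. Their median log2 differences were -0.78 and -1.37. DESeq2 called 4 of 8 and 2 of 6 lower there, beside 1256 of 16066 genes, and limma-voom 1 of each list, beside 187. In vehicle no marker was called by edgeR, as for all genes (0%). There 5 of 8 astrocyte and 2 of 6 oligodendrocyte-lineage markers had an unadjusted p below 0.05 beside 19.6% of all genes. DESeq2 called none of either list in vehicle, beside 4.61% of all genes. The part of these cells in the values of Nlrx1 was not tested, and in bulk RNA fewer cells of a type and less RNA per cell cannot be told apart.

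Nlrx1 was lower in every Nlrx1-/- library than in any WT library, but it was not absent. In WT vehicle the deposited CPM, counts scaled for library size, were 21.7, 17.5, 17.2 and 18.5 in litters 1 to 4, from 661, 503, 804 and 680 reads. In Nlrx1-/- vehicle they were 4.66, 7.75, 3.52 and 7.16 CPM, from 173, 290, 131 and 312 reads. The highest Nlrx1-/- vehicle value was thus less than the lowest WT value, and the groups did not overlap. The mean was 18.7 ± 2.06 CPM in WT and 5.77 ± 2.01 CPM in Nlrx1-/- vehicle cells (SD, n = 4), which left 30.9% of the WT level.

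Under LPS + IFNγ the separation was again complete. WT cells had 16.8, 17.0, 17.4 and 18.2 CPM in litters 1 to 4, from 474, 566, 493 and 692 reads. Nlrx1-/- cells had 4.49, 4.19, 2.07 and 4.62 CPM, from 153, 115, 76 and 161 reads. The means were 17.3 ± 0.58 CPM and 3.84 ± 1.20 CPM (SD, n = 4), and 22.2% of the WT level remained.

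**Figure D2:**
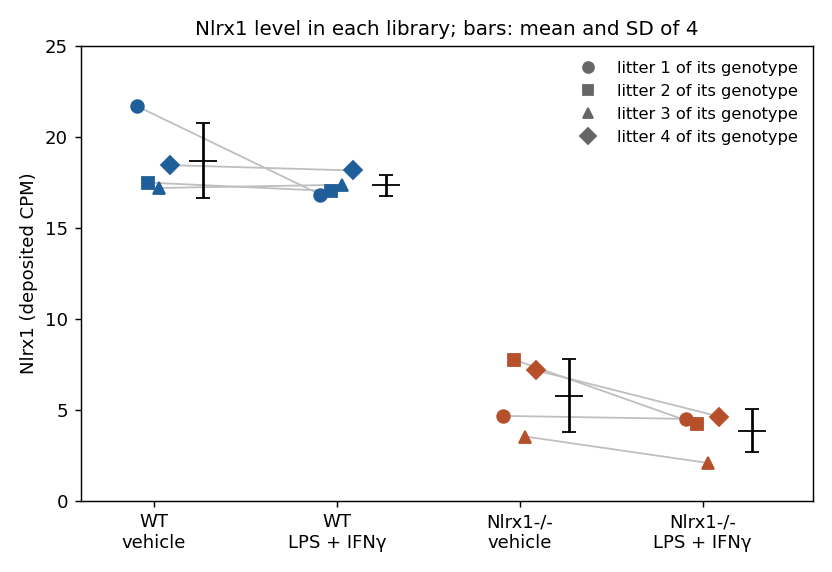
Deposited CPM of Nlrx1 (vertical axis, from 0) in each of the 16 libraries; symbols are litters within a genotype, grey lines join the 2 wells of a litter, and black marks are the mean and SD of 4 libraries. All WT libraries sit between 16.8 and 21.7 CPM and all Nlrx1-/- libraries between 2.07 and 7.75 CPM, and the line falls in each Nlrx1-/- litter, least in litter 1.

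In edgeR's quasi-likelihood test, Nlrx1 differed between genotypes by -2.19 on the log2 scale in LPS + IFNγ (SE 0.25, 95% interval -2.72 to -1.66, adjusted p = 0.00318). It had the smallest p of the 16066 genes tested, of which 5.03% were called and 2.38% were called lower. In vehicle the difference was -1.70 (SE 0.24, 95% interval -2.22 to -1.19). It again had the smallest p of all genes, but its adjusted p of 0.0538 in edgeR missed the threshold. In vehicle edgeR called 0 genes (0%), with 3152 genes (19.6%) at an unadjusted p below 0.05, while DESeq2 called 740 genes and limma-voom called 1. Without WT litter 1, Nlrx1-/- litter 2 or Nlrx1-/- litter 3 the vehicle difference of Nlrx1 was called, with adjusted p of 0.0356, 0.0377 and 0.00199 in edgeR. Without any other litter it was not, and the adjusted p in edgeR rose to 0.313 without WT litter 2, 0.302 without WT litter 3 and 0.326 without WT litter 4. A two-sided exact permutation test on the deposited log2 CPM, added after the data were seen, gave p = 0.0286 in both treatments, the smallest that 4 against 4 libraries allow. Groups that do not overlap always give this value, and it was not adjusted over genes.

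The residual level varied among the Nlrx1-/- litters. As a share of the WT mean in the same treatment, the vehicle wells of litters 1 to 4 held 24.9%, 41.4%, 18.8% and 38.3%. The LPS + IFNγ wells held 25.9%, 24.2%, 11.9% and 26.6%. Litter 3 was the lowest in both treatments. Markers also differed between these litters. In Nlrx1-/- vehicle the log2 CPM of Gfap, the astrocyte filament gene, was 9.57, 7.41, 10.48 and 8.4 in litters 1 to 4, and that of Mbp, a myelin gene, was 5.97, 2.51, 7.24 and 3.03. Both were highest in litter 3 and lowest in litter 2, the reverse of Nlrx1, in vehicle. In LPS + IFNγ Mbp was 3.53, 0.27, 5.33 and 0.73 and Gfap 9.36, 8.64, 10.02 and 8.51, again highest in litter 3. The part of these markers in the residual level of Nlrx1 was not tested. On the log2 scale the SD among litters was 0.53 in vehicle and 0.54 in LPS + IFNγ for Nlrx1-/- cells, and 0.15 and 0.05 for WT cells.

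In deposited CPM, LPS + IFNγ left the WT level within the spread of the litters and lowered the residual level in Nlrx1-/- cells. The WT result depended on the scaling. In TPM the WT litters ran from 9.74 to 12.4 in vehicle and from 7.98 to 8.87 in LPS + IFNγ. These TPM ranges did not overlap, and the fall in TPM was not tested. On the deposited log2 CPM scale, the difference between the LPS + IFNγ well and the vehicle well was -0.36, -0.04, 0.01 and -0.02 in WT litters 1 to 4. In Nlrx1-/- litters it was -0.05, -0.88, -0.75 and -0.63. The first Nlrx1-/- litter thus lay within the range of the WT litters, and the other 3 lay below it. With litters as blocks in edgeR, the response was -0.11 in WT (SE 0.13, 95% interval -0.39 to 0.17, adjusted p = 0.501), and Nlrx1 was not called, while 43.9% of all genes were. In Nlrx1-/- cells Nlrx1 fell by 0.60 on the log2 scale (SE 0.14, adjusted p = 0.00481), where 49.4% of genes were called and 24.2% were called lower, so a call of this kind was common.

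The responses of the genotypes differed by -0.48 (SE 0.19, 95% interval -0.90 to -0.07). The unadjusted p of this interaction was 0.0273 and the adjusted p was 0.276 in edgeR. The interaction called 0 genes (0%) in edgeR, with 2469 genes (15.4%) at an unadjusted p below 0.05, while DESeq2 called 305 genes and limma-voom called 0. An exact permutation test of the litters' log2 differences gave a two-sided p of 0.0571. A difference between the responses of WT and Nlrx1-/- cells was therefore not shown for Nlrx1.

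**Figure D3:**
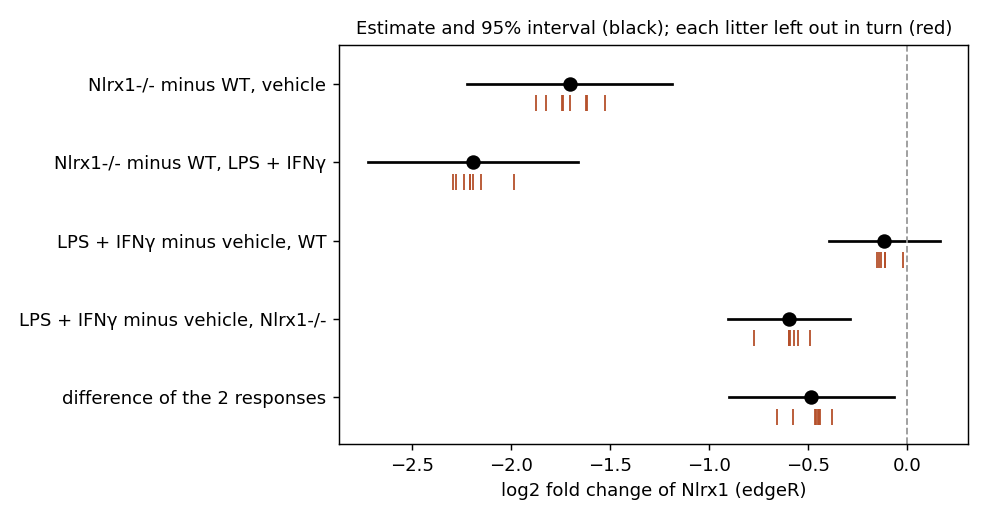
Log2 fold change of Nlrx1 in edgeR (horizontal axis) for 5 comparisons; black points and lines are the estimate and its 95% interval, and red ticks are the estimates with each of the 8 litters left out. The genotype differences lie between -2.29 and -1.52 with any litter left out, and the WT response lies closest to 0.

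The split of these reads between variants was far less even than their sum. In WT vehicle NM_001163742.1 held 591.7, 70.6, 0 and 249.2 expected reads in litters 1 to 4. NM_001163743.1 held 69.3, 432.4, 804.0 and 430.8 reads. NM_178420.3 was listed at 0 in all 4. The share of NM_001163742.1 in the Nlrx1 reads thus ran from 0% to 89.5% among vehicle libraries of 1 genotype.

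In WT LPS + IFNγ, NM_001163742.1 held 113.3, 0, 0 and 189.2 reads in litters 1 to 4. NM_001163743.1 held 360.7, 443.8, 493.0 and 502.8 reads, a narrower range of 72.7% to 100.0% of the Nlrx1 reads. NM_178420.3 had 122.2 reads in litter 2 and was listed at 0 in the other litters. Wells of the same litter also differed, as in WT litter 1, where NM_001163742.1 took 89.5% of the reads in vehicle and 23.9% in LPS + IFNγ.

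Over the 8 WT libraries, NM_001163743.1 had 72.6% of 4873 Nlrx1 reads, NM_001163742.1 had 24.9% and NM_178420.3 had 2.51%. NM_001163743.1 was the one variant with reads in all 8 WT libraries, against 5 of 8 for NM_001163742.1 and 1 of 8 for NM_178420.3.

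In Nlrx1-/- vehicle, reads remained mainly on the same variant. NM_001163743.1 held 158.8, 290.0, 125.5 and 231.9 reads in litters 1 to 4. NM_178420.3 held 14.2, 0, 5.55 and 79.6 reads. NM_001163742.1 was listed at 0 in all 4 libraries, where 3 of 4 WT vehicle libraries had reads on it.

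In Nlrx1-/- LPS + IFNγ the order changed from litter to litter. NM_001163743.1 held 153.0, 0, 21.3 and 116.0 reads. NM_178420.3 held 0, 25.8, 54.7 and 45.0 reads. NM_001163742.1 had 89.2 reads in litter 2, which was 77.5% of that library's Nlrx1 reads, and was listed at 0 in the others. Each variant was thus listed at 0 in at least 1 of the 4 libraries.

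Over the 8 Nlrx1-/- libraries, NM_001163743.1 had 77.7% of 1410 Nlrx1 reads, NM_178420.3 had 15.9% and NM_001163742.1 had 6.32%. Libraries with reads numbered 7 of 8 for NM_001163743.1, 6 of 8 for NM_178420.3 and 1 of 8 for NM_001163742.1. All 3 variants therefore still held reads in some Nlrx1-/- library, and no variant held reads in WT libraries alone. Values per transcript do not say which exons the remaining reads covered.

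**Figure D4:**
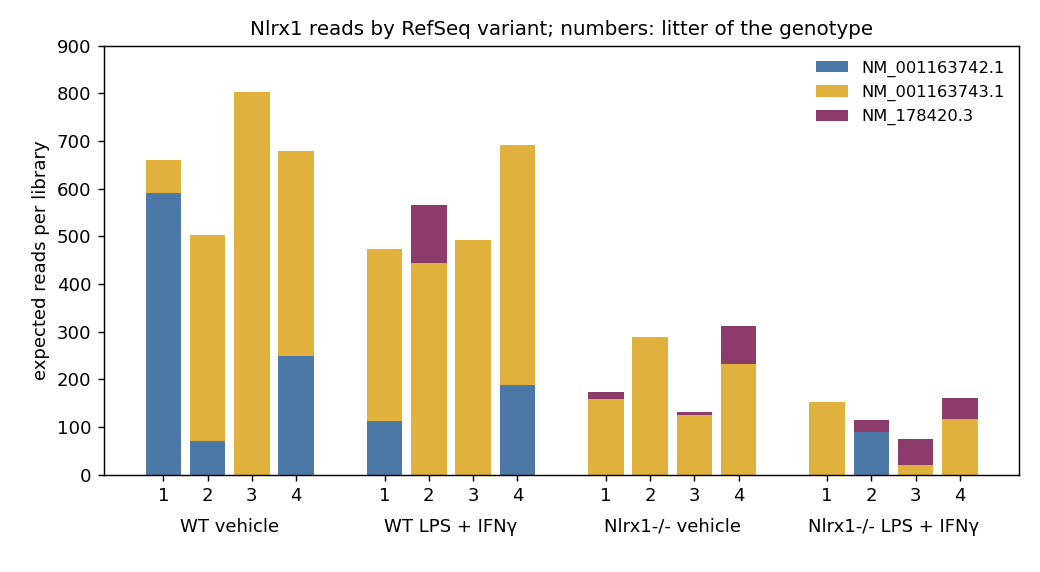
Expected reads per library (vertical axis, not scaled for depth) on the 3 RefSeq variants of Nlrx1, stacked, in the 16 libraries ordered by group and litter. NM_001163743.1 (yellow) is present in 15 of 16 libraries, NM_001163742.1 (blue) mostly in WT libraries and NM_178420.3 (purple) mostly in Nlrx1-/- libraries.

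None of these differences of the variants between genotypes was called by edgeR. Among 50109 transcripts tested with edgeR, 0 of the 3 variants were called between genotypes in vehicle, where 0.002% of all transcripts were called, or in LPS + IFNγ, where 0.00798% were called. Adjusted p ranged from 0.366 to 1. For NM_001163743.1, the variant with the most reads, the log2 difference was -1.15 in vehicle (SE 0.97) and -2.77 in LPS + IFNγ (SE 1.02). For the other variants no fold is given in vehicle, since one of the groups was listed at 0. In edgeR 2 of the 3 variants, NM_001163742.1 and NM_178420.3, had an unadjusted p below 0.05 in vehicle and 1, NM_001163743.1, in LPS + IFNγ, against 8.99% and 11% of all transcripts in the 2 treatments. DESeq2 called NM_001163742.1 and NM_178420.3 in vehicle and NM_001163743.1 in LPS + IFNγ, among 1566 and 2334 transcripts it called in all.

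The responses of the variants to LPS + IFNγ were likewise not called in edgeR. The adjusted p lay between 0.563 and 0.905 in WT, where 7.02% of transcripts were called, and between 0.394 and 0.916 in Nlrx1-/- cells, where 8.29% were called. At an unadjusted p below 0.05 the count was also 0 of 3 in each genotype, beside 16.3% of all transcripts in WT and 18.4% in Nlrx1-/- cells. DESeq2 called 0 of 3 in each, beside 9728 of 50109 transcripts in WT and 11391 in Nlrx1-/- cells.

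The share of a variant in its gene was tested apart from the level of the gene, with diffSpliceDGE of edgeR on 36791 transcripts. In vehicle 0 of the 3 variants were called, against 0.0951% of transcripts, and in LPS + IFNγ 0 of 3, against 0.0897%. Limma's diffSplice on voom values also called 0 of 3 in each treatment, beside 41 of 36791 transcripts in vehicle and 18 in LPS + IFNγ. NM_001163742.1 (adjusted p = 0.265 in edgeR) and NM_178420.3 (adjusted p = 0.676 in edgeR) had an unadjusted p below 0.05 in vehicle, and none had in LPS + IFNγ. Of all transcripts tested for usage in edgeR, 4.69% had such a p in vehicle and 4.7% in LPS + IFNγ.

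The spread between libraries set what these tests could show. The biological coefficient of variation that edgeR estimated was 0.24 for the gene, against a median of 0.16 over genes. It was 2.80 for NM_001163742.1, 2.38 for NM_178420.3 and 0.89 for NM_001163743.1, against a median of 0.87 over transcripts. The values of NM_001163743.1 thus varied about as much as a typical transcript. Those of NM_001163742.1 varied more than 90.3% of transcripts and those of NM_178420.3 more than 84.1%.

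Per length, Nlrx1 was the most abundant of 28 NLR genes in resting cells, by sums that leave out transcripts not paired with a symbol. It stood at 10.5 ± 1.25 TPM in WT vehicle (SD, n = 4), above Nod1, the receptor for a bacterial peptidoglycan fragment, at 4.32 ± 0.31 TPM, and Nlrc5, an activator of MHC class I genes, at 1.20 ± 0.13 TPM. The ranges of these genes did not overlap, with the lowest Nlrx1 value at 9.74 TPM and the highest of Nod1 at 4.63 TPM. Among 15302 genes with a mean of at least 10 reads, 40.0% had a lower mean TPM than Nlrx1 in this group.

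With LPS + IFNγ the order turned over. In WT cells Nlrc5 reached 86.0 ± 13 TPM, Ciita, an activator of MHC class II genes, 74.6 ± 8.45 TPM and Nod1 42.0 ± 8.45 TPM, and Nlrx1 came after these at 8.39 ± 0.37 TPM (SD, n = 4). The value of Ciita is too low, by at least 0.39 log2 units against the deposited log2 CPM, so the order of Nlrc5 and Ciita cannot be given. Nlrx1 lay apart from each. Nlrx1 also came after these 3 genes in Nlrx1-/- LPS + IFNγ, at 1.82 ± 0.55 TPM. In Nlrx1-/- vehicle it stood at 3.10 ± 1.04 TPM, next to Nod1 at 2.99 ± 0.59 TPM, and these ranges overlapped.

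Of the 27 other NLR genes on the list, 5 had enough reads to be tested. Nod1, Nlrc5 and Ciita rose with the stimulus in both genotypes (edgeR, 3 of 5, where 23.7% of genes in WT and 25.3% in Nlrx1-/- cells were called higher). Nod1 rose by 3.47 on the log2 scale in WT and 3.59 in Nlrx1-/- cells, and Nlrc5 by 6.35 and 6.48 (adjusted p at most 6.55e-09 in edgeR). Ciita was at or near 0 in vehicle and its undercount against the deposited log2 CPM reached 4.31 log2 units, so its fold is not given. Nlrc3, described as a negative regulator of immune signalling, fell by 1.28 on the log2 scale in WT (SE 0.43, adjusted p = 0.0315 in edgeR), where 20.2% of genes were called lower, and that call was lost when any 1 WT litter was left out. Nlrp6, a sensor best known from the gut, had -1.36 in WT (adjusted p = 0.0947 in edgeR).

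Between genotypes edgeR called 0 of these 5 genes in either treatment, against 0% and 5.03% of all genes. In LPS + IFNγ 2 of the 5 had an unadjusted p below 0.05, beside 28.4% of all genes, and in vehicle 1, beside 19.6%. Nod1 had -0.48 in vehicle (adjusted p = 0.124 in edgeR) and -0.39 in LPS + IFNγ (adjusted p = 0.0784 in edgeR). DESeq2 called 1 of the 5 lower in each treatment, beside 267 of all 16066 genes called lower in vehicle and 1256 in LPS + IFNγ. Limma-voom called 0 of the 5, beside 0.00622% of all genes in vehicle and 2.41% in LPS + IFNγ. The 22 untested genes had at most 33 summed reads in a library, a count reached by Nod2, and 10 of them were at 0 in all 16 libraries. These sums leave out transcripts not paired with a symbol. They were not compared with the deposited values for the 22 genes, so a 0 does not show absence.

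A list of 16 genes whose products are linked to NLRX1, among them Mavs, Traf6, the IKK subunits Chuk, Ikbkb and Ikbkg, Tufm and the autophagy genes Atg5, Atg12 and Atg16l1, was tested in full. In LPS + IFNγ edgeR called 2 of 16 higher in Nlrx1-/- cells, where 2.65% of all genes were called higher, and 0 lower. Sting1, an adaptor of the cytosolic DNA response, was higher by 1.58 on the log2 scale (SE 0.39, adjusted p = 0.0423 in edgeR), and Atg16l1, which helps attach LC3 to autophagosome membranes, by 0.40 (SE 0.09, adjusted p = 0.0396 in edgeR). The summed reads of Atg16l1 departed from the deposited log2 CPM by -0.31 to 0.05, a range close to that difference. The call of Sting1 held in 2 of 8 fits with a litter left out and that of Atg16l1 in 3 of 8. In vehicle edgeR called 0 of 16, as for all genes (0%), with 7 at an unadjusted p below 0.05 beside 19.6% of all genes. DESeq2 called 1 of 16, beside 4.61% of all genes, and limma-voom 0. The median log2 difference was 0.02 in vehicle and 0.05 in LPS + IFNγ, beside 0.00 and -0.01 over all genes tested. Tufm had 0.17 in vehicle and -0.02 in LPS + IFNγ (adjusted p = 0.192 and 0.882 in edgeR).

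Sting1 varied among litters of the same genotype too. Its log2 CPM was 1.79, 2.94, 1.26 and 2.41 in Nlrx1-/- vehicle and 4.83, 5.60, 4.17 and 5.10 in Nlrx1-/- LPS + IFNγ, and litter 3 was the lowest in each. In WT LPS + IFNγ it was 3.85, 3.66, 2.96 and 3.11, all below the Nlrx1-/- values.

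The genes beside Nlrx1 were examined because a targeted allele can carry flanking sequence with it. Within 500 kb lay 48 genes, of which 29 could be tested. In vehicle edgeR called 0 of 29, as for all genes (0%), with 4 at an unadjusted p below 0.05 beside 19.6% of all genes. DESeq2 called 1 of 29, beside 4.61% of all genes, and limma-voom 0. In LPS + IFNγ edgeR called 1 of 29, beside 5.03% of all genes. The median log2 difference of the 29 was 0.14 in vehicle and -0.01 in LPS + IFNγ.

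The gene called was Abcg4, a lipid transporter of the ABC family and the nearest tested gene upstream. It lies on the minus strand at chr9:44184484-44199912 on GRCm39, 4587 bases from Nlrx1. Its log2 CPM was 4.39, 4.16, 4.12 and 4.21 in WT LPS + IFNγ and 3.95, 3.46, 3.92 and 3.30 in Nlrx1-/- LPS + IFNγ, so that the groups did not overlap. The difference was -0.54 (SE 0.14, adjusted p = 0.0447 in edgeR), and it was called in 1 of 8 fits with a litter left out, the one without Nlrx1-/- litter 3. In vehicle the groups overlapped, with 4.39, 4.23, 4.38 and 4.36 in WT and 4.28, 4.13, 4.55 and 4.32 in Nlrx1-/- cells, and the difference was -0.02 (SE 0.14, adjusted p = 0.967 in edgeR). With the stimulus Abcg4 fell by 0.66 on the log2 scale in Nlrx1-/- cells (adjusted p = 0.000466 in edgeR) and had -0.12 in WT (adjusted p = 0.385 in edgeR). The difference between these responses had an adjusted p of 0.223 in edgeR.

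Of the other nearest genes, Hinfp, a histone gene transcription factor 21444 bases away, had 0.18 in vehicle and 0.38 in LPS + IFNγ (adjusted p = 0.397 and 0.0609 in edgeR). Its summed reads departed from the deposited log2 CPM by -0.36 to -0.07. Downstream, Pdzd3, named Nherf4 in GENCODE and 1222 bases away, had 0.97 and -0.26 (adjusted p = 0.397 and 0.834 in edgeR). Ccdc153, a gene of ciliated cells 5396 bases away, had -0.93 and -1.39 (adjusted p = 0.537 and 0.300 in edgeR). Both of the downstream genes were near the lower limit of the test, with mean log2 CPM between -1.77 and 0.51, and their standard errors lay between 0.62 and 0.86.

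**Figure D5:**
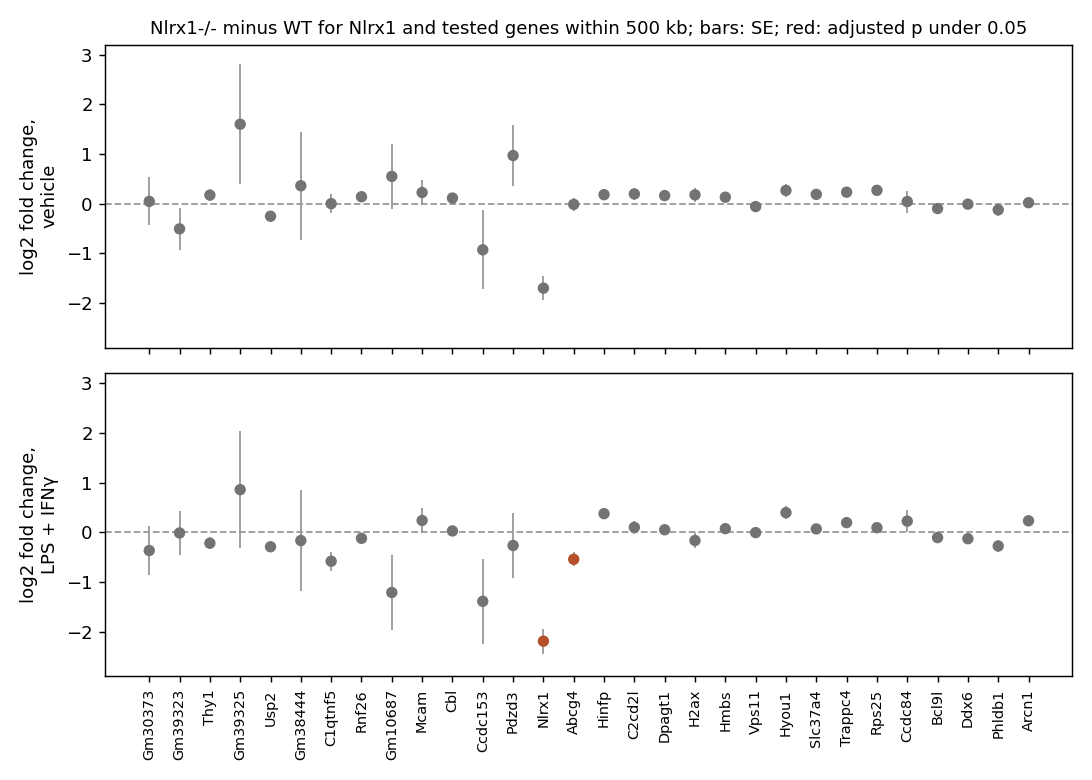
Log2 fold change between genotypes (vertical axes, Nlrx1-/- minus WT) of Nlrx1 and the 29 tested genes within 500 kb, in chromosomal order, for vehicle (top) and LPS + IFNγ (bottom); bars are standard errors and red marks an edgeR adjusted p below 0.05. Nlrx1 has the lowest value in both panels, and Abcg4 beside it is the other red point in the lower panel.

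Genes with a pattern like that of Nlrx1 were named by Pearson's r of log2 CPM over the 16 libraries, among 13471 genes. The highest were Snx33 (r = 0.81), a sorting nexin of endocytosis, Lrch3 (r = 0.79), Ndn (r = 0.78), a growth regulator of the MAGE family, Ccdc158 (r = 0.78) and Prrg3 (r = 0.77). The libraries share genotype and treatment, so these values reflect differences between groups as well as between litters. The summed reads of Lrch3 departed from the deposited log2 CPM by -0.37 to 0.01. That range is close to its genotype differences of -0.37 in vehicle and -0.38 in LPS + IFNγ. Once the mean of each group was taken off, the highest were Adamts17 (r = 0.91), a secreted metalloprotease, Calcrl (r = 0.90), the calcitonin receptor-like receptor, Ppm1l (r = 0.90), a protein phosphatase, Pygm (r = 0.90), a glycogen phosphorylase, and Car3 (r = 0.89), a carbonic anhydrase.

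The spread that remains after that step came mostly from the Nlrx1-/- litters. Adamts17 had a log2 CPM of 1.37, 3.27, 1.03 and 2.69 in Nlrx1-/- vehicle and of 1.65, 2.26, 0.03 and 2.15 in Nlrx1-/- LPS + IFNγ. Litter 3 was the lowest in both, as it was for Nlrx1. Calcrl had 4.89, 5.73, 4.18 and 5.42 in Nlrx1-/- vehicle and 4.76, 5.33, 3.71 and 5.14 in Nlrx1-/- LPS + IFNγ, with the same litter lowest. Both genes were chosen by their r with Nlrx1, so a shared low litter comes with that choice and is no further likeness. These likenesses are descriptions over 16 libraries from 8 litters, and the pair of wells of a litter is not independent.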

How the data were processed

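RNA of 16 astrocyte libraries was quantified by the authors with Salmon 1.7.0 on GRCm39 RefSeq transcripts, and the expected counts and TPM were deposited per transcript. Expected counts were rounded for the tests. The deposited CPM values, treated here as a score because their columns were scaled by TMM-adjusted library sizes, and the deposited log2 values were made by the authors with tximport and limma 3.58.1. Expected counts were summed per gene through 106440 of 129698 transcripts whose accession was paired with a symbol in RefSeq (GRCm38.p6, used for names and gene order), which held 96.7% to 97.3% of the reads. Unpaired transcripts lower some genes. For Nlrx1 the sums stayed within 0.0024 log2 of the deposited values.

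Tests of genes and transcripts used the quasi-likelihood method of edgeR 4.0.16 in R 4.3.3, with offsets for length, TMM scaling and a minimum count of 10, and were adjusted by Benjamini-Hochberg over 16066 genes or 50109 transcripts. Genotypes were compared with all 4 groups in 1 model, and responses with litters as blocks, since both wells of a litter came from the same pups by the series design. Wells of a litter correlated with r from 0.06 to 0.32 across genes. DESeq2 1.42.0, limma-voom and the other alternatives are given under sensitivity. Summaries, sequences and plots were made with Python 3.11.15, pandas 2.3.3, numpy 2.4.6 and matplotlib 3.10.9. The fits were tested on simulated counts with the same spread for every gene and transcript and no litter effect. That spread was below the one edgeR estimated for the Nlrx1 variants, so the simulation does not speak for the variant tests. Read depth limits a variant through its few distinguishing reads, and expected counts of 0 are estimates.

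Nlrx1, its variants and all lists were chosen with earlier results of these data known. Named were Nlrx1 and its variants, the 5 genes most correlated with it over libraries and after centring (mean of at least 1 CPM), the 2 nearest tested genes on each side, called genes within 500 kb, tested NLR genes, and the partner, stimulus and marker lists. Ddx58 was counted for Rigi. One gene of the stimulus list and the upstream sequence are not reported here. Replicates were litters in culture. Genotype tests had no litter term, so both wells of a litter counted as separate libraries when the spread was estimated. The p-values and intervals of those tests do not take that pairing into account. For the responses, p-values measure the spread between litters of the difference between wells.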

Additional observations from a re-analysis of the deposited data

Results flagged for a closer look

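In groups of 4, a value was marked where its gap to the nearest other value was too large a part of the group's range by Dixon's 95% critical value. For normally distributed values chance gives a mark in about 1 of 20 groups. A group in which all values but 1 are equal, as at 0, is always marked, so that rate does not hold there. Of 66 groups examined, 8 were marked, and the variant marks below count both as reads and as a share. Nlrx1 in Nlrx1-/- LPS + IFNγ litter 3 stood at 1.09 on the deposited log2 CPM scale, below the other litters. The log2 difference of Nlrx1 between wells of WT litter 1 was -0.36, where the other WT litters lay near 0. NM_178420.3 held 122 reads, or 21.6% of the Nlrx1 reads, in WT LPS + IFNγ litter 2 and was listed at 0 in the other 3 litters. NM_001163742.1 held 89.2 reads, or 77.5%, in Nlrx1-/- LPS + IFNγ litter 2 and was listed at 0 in the other 3. Nlrc3 stood at -0.63 log2 CPM in Nlrx1-/- LPS + IFNγ litter 2, below the other litters. Ciita stood at -1.17 log2 CPM in Nlrx1-/- vehicle litter 1, above the other litters, which were at 0 in the summed reads. These sums undercount Ciita against the deposited log2 CPM, on which the 4 libraries stood at 0.39, -0.69, -0.44 and 0.19 and litter 1 was not apart from the rest.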

How the results depend on the processing

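The genotype difference of Nlrx1 kept its direction under each alternative run. In vehicle it passed the threshold with DESeq2 (-1.70), limma-voom (-1.75), no low-count filter (-1.70), the replicate number as a block (-1.75) and limma on the deposited log2 CPM (-1.75, added after the data were seen). The exact permutation test, also added after the data were seen, had a difference of -1.75. Its p of 0.0286 was not adjusted over genes, and groups that do not overlap always give that p. With each litter left out in turn the vehicle difference lay between -1.87 and -1.52. The replicate block changed no other genotype call of Nlrx1. Equal litter numbers across genotypes correlated with r from -0.08 to 0.17, and wells of the same litter with r from 0.06 to 0.32. These ranges overlap, so r cannot tell whether equal numbers share a preparation. In LPS + IFNγ the difference was called under each setting. The fall in Nlrx1-/- cells lost its call without the replicate block of litters (-0.61, adjusted p = 0.0597 in edgeR).

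The count of called genes around Nlrx1 in vehicle was 1 with DESeq2 and 0 to 1 with litters left out. In LPS + IFNγ it was 5 of 29 with DESeq2 (14.8% of all genes called), 2 without length offsets (5.27%), 0 without the filter (2.28%), 6 with the replicate block (13.7%), 2 with limma on the deposited log2 CPM (8.8%, added after the data were seen), 2 in a 1 Mb window, and 0 to 8 with litters left out, the 8 being without Nlrx1-/- litter 3 (20.5%). The count of called variants was 2 in vehicle and 1 in LPS + IFNγ with DESeq2. NM_178420.3, at 0.00 between genotypes in LPS + IFNγ, had -0.0056 without the filter and -0.42 to 8.04 with litters left out, the last without WT litter 2, which leaves WT at 0 reads and the value no bound. Its response in Nlrx1-/- cells ran from -0.61 to 3.02, likewise not called. The cause of these changes was not tested. Expected reads per variant limit the variant results.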
